A study of Mus musculus with 12 samples.

Results

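Interleukin genes and interleukin receptor genes of mouse skin were taken from a table of 23359 genes as every row whose symbol starts with Il and a digit. The ligands Il1a, Il1b, Il1rn, Il1f5, Il1f6, Il1f8, Il1f9, Il18, Il33 and Il11 were left out. This gave 72 genes, of which 29 code for ligands, 40 for receptors or receptor-like chains and 2 for other proteins, and 1, listed as Il8, was given no role here. The study profiled RNA of whole skin from C3H/HeJ mice in 12 libraries. Treated skin of 20 weeks was fibrotic skin that had received CD36highCD90+ fibroblasts, and the other groups were fibrotic skin of 20 weeks, fibrotic skin of 6 weeks and normal skin, with 3 libraries each. How the fibrosis was caused, the age of the normal mice and whether each library is a mouse of its own are not given in the labels. The p-values therefore rest on a spread between libraries that may be technical. Values are FPKM, which scale the fragments of a gene to its length and to the library.

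Interleukins are secreted signals that act on cells carrying the matching receptor, which is usually built from a chain that binds 1 ligand or few and a chain shared by many. Receptors that share the gp130 chain, encoded by Il6st, the common gamma chain, encoded by Il2rg, or Il10rb signal through Jak kinases and Stat factors. Receptors of the IL-1 and IL-17 families signal through adaptor proteins and NF-kB. In skin, keratinocytes carry receptors for IL-17, IL-20, IL-22, IL-31 and IL-36 family ligands, while lymphocytes, myeloid cells and keratinocytes themselves make these ligands.

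Of the 72 genes, 45 were detected, which here means at least 1 FPKM in at least 3 of the 12 libraries. They were 9 of the 29 ligands, 34 of the 40 receptors, and both other proteins, Il18bp, a soluble inhibitor of IL-18, and Il4i1, an amino acid oxidase. At the edge of this rule, Il1rl1 and Il27ra passed with 3 libraries, while Il6 reached 1 FPKM in 2 libraries and stayed out. The other 26 genes reached 1 FPKM in 1 library or none.

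The libraries held 12658 to 13364 genes at 1 FPKM or more. The level of treated replicate 1 stood nearer to fibrotic skin than that of the other treated libraries for markers of wound keratinocytes, whose summed FPKM was 8150.5 there, 1259.4 and 1192.2 in treated replicates 2 and 3, 4093.4 to 10737.3 in fibrotic skin of 20 weeks, 6717.1 to 17244.5 in fibrotic skin of 6 weeks and 361 to 598 in normal skin. Treated libraries also differed more among themselves, with a median SD of log2(FPKM + 1) over genes of 0.239, beside 0.148 in fibrotic skin of 20 weeks, 0.142 in fibrotic skin of 6 weeks and 0.148 in normal skin. Markers of other cells moved with the groups too. Summed macrophage markers, 11 genes, stood at 269 to 358 FPKM in treated skin, 453 to 482 FPKM in fibrotic skin of 20 weeks, 419 to 937 FPKM in fibrotic skin of 6 weeks and 128 to 256 FPKM in normal skin. Summed T cell markers, also 11 genes, stood at 27.2 to 75 FPKM in treated skin, 45.9 to 55.6 FPKM in fibrotic skin of 20 weeks, 16.7 to 44.4 FPKM in fibrotic skin of 6 weeks and 41.6 to 65.4 FPKM in normal skin. In this sum only the fibrotic groups of 6 and 20 weeks did not overlap. Of the 10 T cell markers tested, 2 were called higher and 3 lower at 6 weeks than in normal skin. Summed NK and innate lymphoid markers, 9 genes, stood at 75.3 to 134 FPKM in treated skin and did not overlap between 84.7 to 89.4 FPKM in fibrotic skin of 20 weeks, 44.3 to 79.7 FPKM in fibrotic skin of 6 weeks and 109 to 154 FPKM in normal skin. Summed basal keratinocyte markers, 5 genes, stood at 5108.8 to 8289.2 FPKM in treated skin, 5966.8 to 8398.8 FPKM in fibrotic skin of 20 weeks, 7720.4 to 9051.4 FPKM in fibrotic skin of 6 weeks and 3890.2 to 4224.2 FPKM in normal skin. These 5 genes did not move together. Against normal skin, 2 were called higher and 2 lower at 6 weeks, and 1 higher and 2 lower at 20 weeks. Their median log2 fold change was -0.45 at 6 weeks and -0.27 at 20 weeks. Summed hair shaft markers, 10 genes, stood at 1181.1, 280 and 4289.2 FPKM in treated skin, with replicate 3 highest of all libraries, 87.3 to 242 FPKM in fibrotic skin of 20 weeks, 1008.2 to 1286.6 FPKM in fibrotic skin of 6 weeks and 2.53 to 359 FPKM in normal skin. Summed sebaceous gland markers, 7 genes, stood at 50.3, 249 and 254 FPKM in treated skin, 13.6 to 36.3 FPKM in fibrotic skin of 20 weeks, 20 to 37.3 FPKM in fibrotic skin of 6 weeks and 90.6 to 219 FPKM in normal skin. Of the 6 B cell markers none was detected, and Ms4a1 and Pax5 were listed at 0 in at least 1 library. The part of such cell mixtures in the results was not tested.

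Sequence upstream of the start was available for several of the receptor genes, and that of the 4 gp130-type receptor genes that fell most at 6 weeks is shown because these genes fell together. The stretches come from RefSeq for GRCm38.p6, the assembly also called mm10, and end where the annotated gene begins. Capitals mark a match to the Stat factor motif TTCNNNGAA, where N is any base.
Il31ra, chr13:112580733-112580912, minus strand: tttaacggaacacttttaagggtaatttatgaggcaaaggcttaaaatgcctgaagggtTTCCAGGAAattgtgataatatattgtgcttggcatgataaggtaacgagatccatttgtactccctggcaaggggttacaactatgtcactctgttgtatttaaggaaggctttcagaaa
Il12rb2, chr6:67376294-67376438, minus strand: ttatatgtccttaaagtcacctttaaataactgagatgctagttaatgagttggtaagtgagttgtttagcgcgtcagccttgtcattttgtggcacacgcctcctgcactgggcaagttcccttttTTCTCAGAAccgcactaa
Il6ra, chr3:89913197-89913446, minus strand: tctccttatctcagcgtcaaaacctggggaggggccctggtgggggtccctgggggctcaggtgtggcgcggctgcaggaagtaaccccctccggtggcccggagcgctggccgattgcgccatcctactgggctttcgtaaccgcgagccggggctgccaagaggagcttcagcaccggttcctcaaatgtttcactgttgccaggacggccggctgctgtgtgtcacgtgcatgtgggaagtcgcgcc
Il6st, chr13:112463820-112464069, plus strand: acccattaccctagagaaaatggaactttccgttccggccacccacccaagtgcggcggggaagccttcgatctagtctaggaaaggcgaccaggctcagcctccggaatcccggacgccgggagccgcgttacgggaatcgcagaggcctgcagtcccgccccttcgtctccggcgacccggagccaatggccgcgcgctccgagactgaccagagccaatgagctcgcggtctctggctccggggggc
The search covered both strands of the 250 bases before the start site, and 2306 of 32851 RefSeq promoters, or 7.02%, held the Stat letters in that window. Il31ra had 1 match at positions -191 to -183 and Il12rb2 had 1 at positions -123 to -115, counted from the start site in the RefSeq table. For these 2 genes that start site lies inside the annotated gene, so the printed stretch ends before it and its capitals stand closer to the end of the stretch than these positions. Neither Il6ra nor Il6st had a match in this window. The AP-1 letters TGANTCA, held by 6.75% of promoters, and the NF-kB motif, held by 1.41%, were not found in these 4 windows. A match is a description of the letters only.

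**Figure D1:**
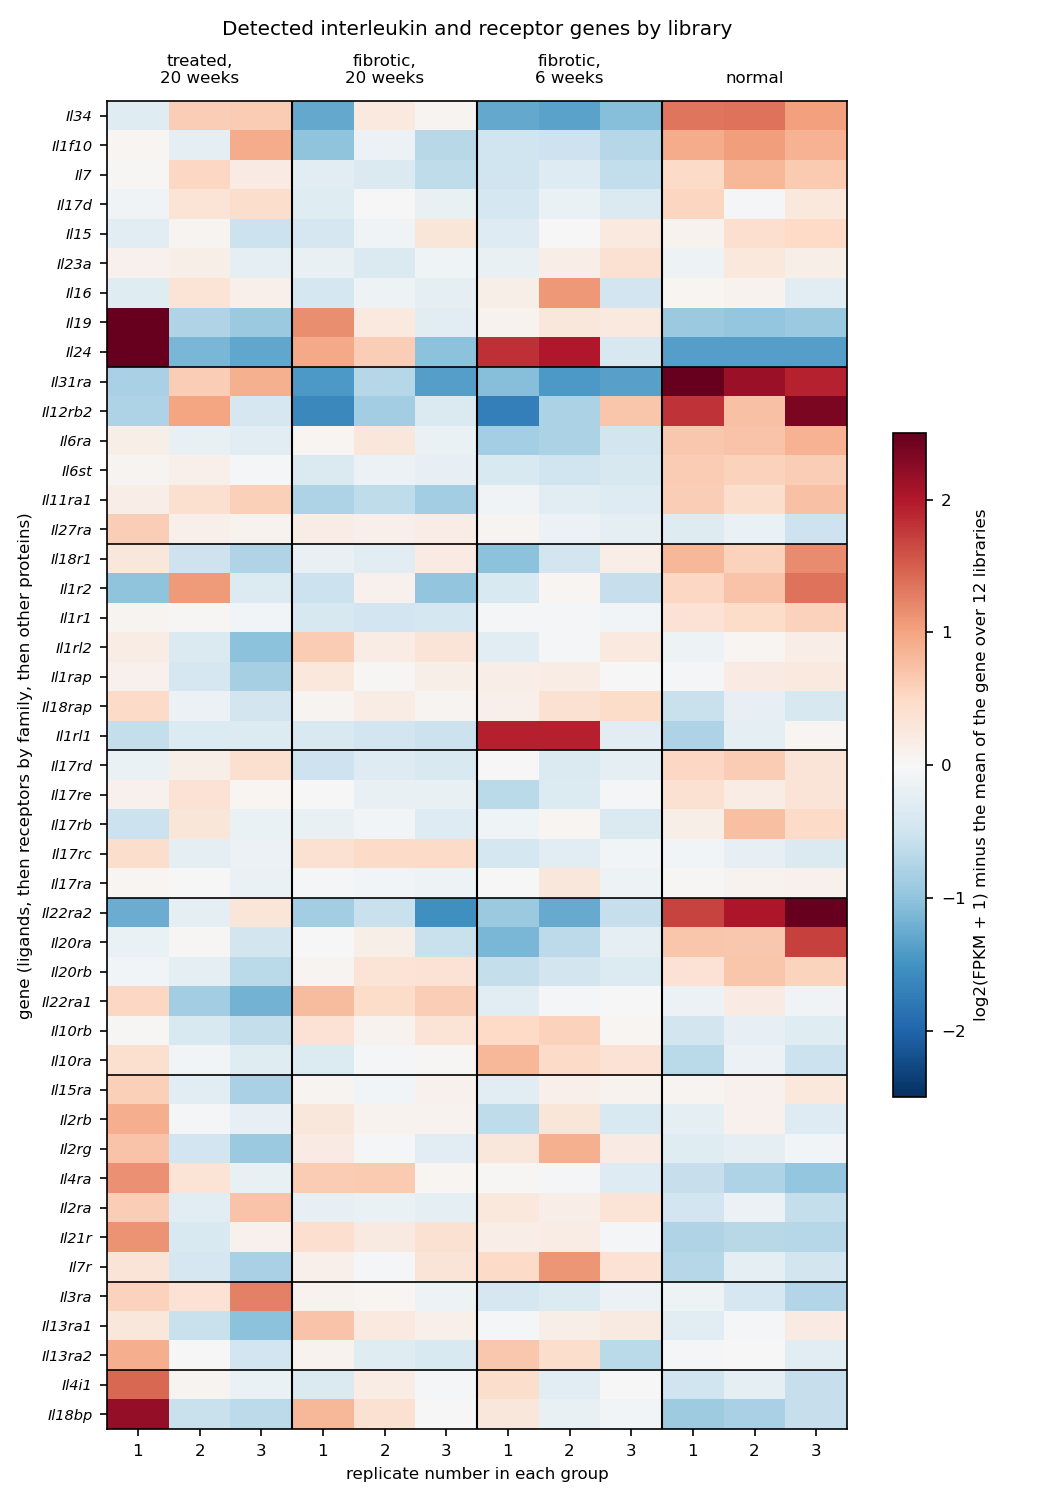
Detected interleukin, receptor and related genes, 1 row each, in the 12 libraries, 1 column each, coloured by log2(FPKM + 1) minus the mean of the gene over all libraries. Il34, Il31ra and Il22ra2 were highest in the 3 normal libraries, and Il19, Il24 and Il18bp were highest in treated replicate 1.

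Fibrotic skin was set against normal skin first, since this comparison asks how interleukin signalling genes differ in the lesion. In fibrotic skin of 6 weeks, 7 of the 45 detected genes were higher and 16 lower than in normal skin, where called means an adjusted p below 0.05 in limma on log2(FPKM + 1). That is 51.1% of the detected genes, beside 39.3% of all 13761 genes tested. In fibrotic skin of 20 weeks, 5 were higher and 14 lower, or 42.2%, beside 33.5% of all genes tested. Among all genes, 17.6% were called higher and 21.7% lower at 6 weeks, and 15.3% higher and 18.2% lower at 20 weeks. The median log2 fold change of the 45 genes was -0.05 at 6 weeks and -0.15 at 20 weeks, beside -0.05 and -0.04 over all genes. Called genes with at least a 2-fold change were 14 of the 45 at 6 weeks and 10 at 20 weeks, beside 11.5% and 9.53% of all genes. The libraries of fibrotic and normal skin did not overlap for 29 of the 45 at 6 weeks and for 29 at 20 weeks, beside 58.1% and 54.6% of all genes. In bulk skin, fewer cells of a type and less RNA per cell cannot be told apart.

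Il34, an alternative ligand of the CSF1 receptor that keratinocytes make and Langerhans cells depend on, was the most abundant of the ligands and fell in fibrotic skin. It stood at 9.15, 28.2 and 24.8 FPKM in fibrotic skin of 20 weeks, at 9.12, 8.79 and 10.8 FPKM in fibrotic skin of 6 weeks and at 61.1, 62.1 and 49.3 FPKM in normal skin. Every fibrotic library was below every normal one, and replicate 1 of 20 weeks was as low as the libraries of 6 weeks. The log2 fold change was -2.47 ± 0.37 (SE, adjusted p = 0.00109) at 6 weeks and -1.56 ± 0.37 (adjusted p = 0.0109) at 20 weeks. Its receptor gene Csf1r, also a macrophage marker, averaged 25.9 FPKM at 20 weeks, 29.8 FPKM at 6 weeks and 20 FPKM in normal skin, and was called higher at 6 weeks (log2 fold change 0.59 ± 0.21, adjusted p = 0.0488). The Langerhans cell marker Cd207 averaged 28.3 FPKM at 20 weeks, 21.1 FPKM at 6 weeks and 30.3 FPKM in normal skin and was not called (adjusted p = 0.685 at 20 weeks and 0.317 at 6 weeks). Of the 7 tested markers of Langerhans and dendritic cells, which include Cd207, 3 were called higher and none lower at 6 weeks. None of the 7 was called at 20 weeks.

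Il7, a survival factor for lymphocytes, and Il1f10, which codes for the IL-1 family ligand IL-38, fell at both times. Il7 stood at 1.08, 0.96 and 0.626 FPKM in fibrotic skin of 20 weeks, at 0.78, 1.01 and 0.648 FPKM in fibrotic skin of 6 weeks and at 2.5, 3.45 and 2.95 FPKM in normal skin. Its log2 fold change was -1.13 ± 0.16 (adjusted p = 0.000956) at 6 weeks and -1.07 ± 0.16 (adjusted p = 0.00167) at 20 weeks. Il1f10 stood at 3.47, 7.05 and 4.52 FPKM in fibrotic skin of 20 weeks, at 5.33, 5.25 and 4.42 FPKM in fibrotic skin of 6 weeks and at 15.9, 17.4 and 15.4 FPKM in normal skin. For both genes the fibrotic and normal libraries did not overlap. Il1f10 had a log2 fold change of -1.52 ± 0.28 (adjusted p = 0.00273) at 6 weeks and -1.56 ± 0.28 (adjusted p = 0.00321) at 20 weeks.

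Il17d, a member of the IL-17 ligand family, was called lower at 6 weeks (log2 fold change -0.57 ± 0.19, adjusted p = 0.0352) with no overlap between 0.481 to 0.784 FPKM in fibrotic skin and 0.951 to 1.91 FPKM in normal skin. With the replicate number as a block its adjusted p was 0.0573, over alternatives that gave 0.0146 to 0.133. The call was also lost without any 1 of the 6-week fibrotic libraries and without normal replicate 1 or 3. At 20 weeks Il17d was not called (-0.41 ± 0.19, adjusted p = 0.118).

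Il19 and Il24, ligands of the IL-20 receptors, had their highest levels in fibrotic skin and 1 treated library, and their call depended on which libraries were in the fit. Il24 stood at 4.03, 2.97 and 0.282 FPKM in fibrotic skin of 20 weeks and at 8.24, 9.41 and 0.963 FPKM in fibrotic skin of 6 weeks, and was listed at 0 in all 3 normal libraries. Il19 stood at 3.41, 1.31 and 0.638 FPKM in fibrotic skin of 20 weeks, at 1.07, 1.39 and 1.31 FPKM in fibrotic skin of 6 weeks and at 0.0247, 0 and 0.0336 FPKM in normal skin. Every fibrotic library was above every normal one for both genes, and replicate 3 of either fibrotic group had the lowest Il24. The adjusted p of Il24 was 0.0713 at 6 weeks and 0.256 at 20 weeks, and that of Il19 was 0.278 at 6 weeks and 0.225 at 20 weeks. With only the 6 libraries compared in the fit, both genes were called higher at both times (Il19 adjusted p = 0.00114 at 6 weeks and 0.0251 at 20 weeks, Il24 0.0185 at 6 weeks and 0.0452 at 20 weeks). Without treated replicate 1, which belongs to neither group compared, Il19 was called at both times (0.0107 and 0.00584) and Il24 at 6 weeks (0.0109). With the replicate number as a block, Il24 was called at 6 weeks (0.0359), and so was Il19 with that block and only the 6 libraries (0.00632). Over the alternatives the adjusted p at 6 weeks was 0.00114 to 0.41 for Il19 and 0.0109 to 0.201 for Il24, and at 20 weeks 0.00584 to 0.485 for Il19 and 0.0452 to 0.494 for Il24. The remaining ligands Il15, Il16 and Il23a were not called at either time, and their levels were between 0.547 and 8.74 FPKM in the fibrotic and normal libraries. Il15 passed the threshold at 6 weeks with the block in the 6 libraries compared (-0.37, adjusted p = 0.0415, over alternatives that gave 0.0415 to 0.501) and at 20 weeks at equal totals (adjusted p = 0.0453, over alternatives that gave 0.0453 to 0.49).

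**Figure D2:**
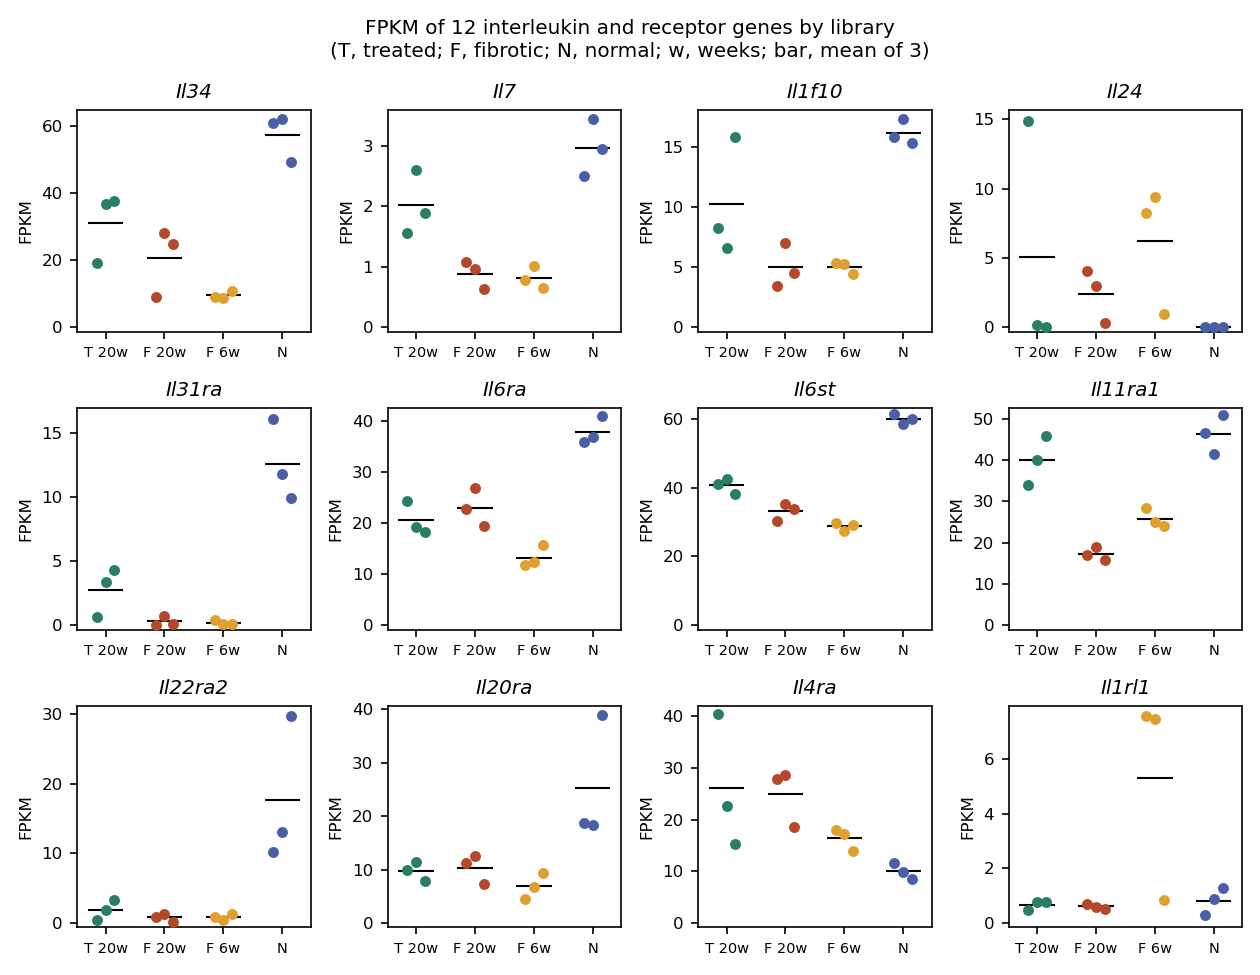
FPKM of 12 interleukin and receptor genes in each library, with a bar at the mean of 3, for treated skin of 20 weeks (T 20w), fibrotic skin of 20 weeks (F 20w), fibrotic skin of 6 weeks (F 6w) and normal skin (N). Each panel has its own axis from 0. Il34, Il7, Il1f10, Il31ra, Il6st and Il22ra2 were higher in every normal library than in any fibrotic one.

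Receptors built like or around gp130 made up the family with the largest share of lower genes, with 5 of 6 detected genes lower at both times. Among all genes tested, 21.7% were lower at 6 weeks and 18.2% at 20 weeks. The families were grouped after the values were seen, so this ranking only describes these data. The exception in this family, Il27ra, was called higher at 20 weeks (log2 fold change 0.50 ± 0.17, adjusted p = 0.0421) and not at 6 weeks. Its levels were at the detection limit, and the call at 20 weeks was lost without normal replicate 1 or 3 or any 1 of the 6 fibrotic libraries, over alternatives that gave 0.0112 to 0.132. Il27ra also overlaps Palm3 in the annotation.

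Il31ra, the receptor chain for the itch cytokine IL-31, fell most. It stood at 0.0485, 0.744 and 0.1 FPKM in fibrotic skin of 20 weeks, at 0.37, 0.0584 and 0.11 FPKM in fibrotic skin of 6 weeks and at 16.1, 11.8 and 9.87 FPKM in normal skin. No fibrotic library reached 1 FPKM, while each normal library was near 10 FPKM or above. The log2 fold change was -3.51 ± 0.40 (adjusted p = 0.000291) at 6 weeks and -3.40 ± 0.40 (adjusted p = 0.000578) at 20 weeks, a scale on which the added 1 FPKM makes the fall smaller than the ratio of the levels. Osmr, which codes for the chain that pairs with it, averaged 15.2 FPKM at 20 weeks, 12.5 FPKM at 6 weeks and 14.9 FPKM in normal skin and was not called (adjusted p = 0.995 at 20 weeks and 0.444 at 6 weeks).

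Il6ra and Il6st, which code for the chains of the IL-6 receptor, both fell. Il6ra stood at 22.7, 26.8 and 19.4 FPKM in fibrotic skin of 20 weeks, at 11.7, 12.3 and 15.7 FPKM in fibrotic skin of 6 weeks and at 35.8, 36.9 and 41 FPKM in normal skin. These 3 groups did not overlap, with the libraries of 6 weeks lowest. Its log2 fold change was -1.46 ± 0.15 (adjusted p = 0.000214) at 6 weeks and -0.71 ± 0.15 (adjusted p = 0.00703) at 20 weeks. Il6st stood at 30.2, 35.3 and 33.7 FPKM in fibrotic skin of 20 weeks, at 29.7, 27.3 and 29.1 FPKM in fibrotic skin of 6 weeks and at 61.4, 58.4 and 59.9 FPKM in normal skin. Its libraries agreed closely within each group, and those of 6 weeks were just below those of 20 weeks. Its log2 fold change was -1.04 ± 0.08 (adjusted p = 0.000106) at 6 weeks and -0.84 ± 0.08 (adjusted p = 0.000323) at 20 weeks.

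Il11ra1 stood at 17.1, 18.9 and 15.9 FPKM in fibrotic skin of 20 weeks, at 28.4, 24.9 and 23.9 FPKM in fibrotic skin of 6 weeks and at 46.6, 41.4 and 50.8 FPKM in normal skin. The groups did not overlap, and the libraries of 20 weeks were lowest. The gene codes for the IL-11 receptor alpha chain, and its log2 fold change was -0.82 ± 0.13 (adjusted p = 0.0012) at 6 weeks and -1.37 ± 0.13 (adjusted p = 0.000302) at 20 weeks. Its value is uncertain, because it has near-identical copies in mouse and overlaps Ccl27a, and the sources used here do not state whether the counting used strand. Ccl27a, a keratinocyte chemokine gene, stood at 32, 58.2 and 47.5 FPKM at 20 weeks, at 15.9, 14.6 and 40 FPKM at 6 weeks and at 240, 205 and 181 FPKM in normal skin. It too was called lower at 6 weeks (-3.23 ± 0.36, adjusted p = 0.000273) and at 20 weeks (-2.19 ± 0.36, adjusted p = 0.0022), and its part in the Il11ra1 values was not tested.

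Il12rb2, a chain of the IL-12 receptor, stood at 1.38, 3 and 4.64 FPKM in fibrotic skin of 20 weeks, at 1.22, 3.21 and 10.8 FPKM in fibrotic skin of 6 weeks and at 24.5, 11.1 and 36.1 FPKM in normal skin. Neither fibrotic group overlapped normal skin, but replicate 3 of 6 weeks came close to normal replicate 2, and the 2 fibrotic groups overlapped each other. The log2 fold change was -2.23 ± 0.67 (adjusted p = 0.0246) at 6 weeks and -2.58 ± 0.67 (adjusted p = 0.0159) at 20 weeks. The call at 6 weeks was lost without normal replicate 1 or 3 or 6-week replicate 1 or 2, and the call at 20 weeks without normal replicate 3 or 20-week replicate 1. Over the alternatives the adjusted p was 0.00925 to 0.0891 at 6 weeks and 0.00753 to 0.0614 at 20 weeks. The summed NK and innate lymphoid markers given above were also below normal skin at both times. Of the 6 tested, 3 were called lower at 6 weeks and 2 at 20 weeks, and none was called higher. Their median log2 fold change at 20 weeks was -0.01, and without treated replicate 1 in the fit 3 were higher and 2 lower then. Their part in the Il12rb2 levels was not tested. Serbp1, which it overlaps, moved the other way, with log2 fold changes of 0.43 ± 0.10 at 6 weeks and 0.66 ± 0.10 at 20 weeks.

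The IL-1 receptor family did not move as 1 group. Of its 7 detected genes, 2 were higher and 2 lower at 6 weeks, and 2 were lower at 20 weeks. Il1r1, the signalling receptor for IL-1, stood at 9.92, 9.39 and 9.64 FPKM in fibrotic skin of 20 weeks, at 13.2, 13 and 12.8 FPKM in fibrotic skin of 6 weeks and at 17.5, 18.9 and 20.6 FPKM in normal skin. The groups did not overlap, with the libraries of 20 weeks lowest and those of 6 weeks between them and normal skin. Its log2 fold change was -0.52 ± 0.08 (adjusted p = 0.0012) at 6 weeks and -0.91 ± 0.08 (adjusted p = 0.000286) at 20 weeks.

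The chains of the IL-18 receptor went opposite ways. Il18r1, which binds the ligand, stood at 5.15, 4.68 and 6.96 FPKM in fibrotic skin of 20 weeks, at 2.42, 4.04 and 6.77 FPKM in fibrotic skin of 6 weeks and at 11.3, 9.33 and 14.7 FPKM in normal skin. It fell with no overlap, by a log2 fold change of -1.30 ± 0.33 (adjusted p = 0.0124) at 6 weeks and -0.95 ± 0.33 (adjusted p = 0.0496) at 20 weeks. The call at 20 weeks was lost without any 1 of 8 libraries, namely those of normal skin, those of fibrotic skin of 20 weeks, 6-week replicate 2 and treated replicate 2, over alternatives that gave 0.0113 to 0.149. The summed NK and innate lymphoid markers were also below normal skin, though not all of these genes were called lower, as given above. The part of these cells in the Il18r1 levels was not tested. Il18rap, the accessory chain, rose at 6 weeks (0.71 ± 0.22, adjusted p = 0.0275), at 1.01, 1.39 and 1.52 FPKM in fibrotic skin of 6 weeks and 0.254, 0.591 and 0.392 FPKM in normal skin. That call was lost without normal replicate 1 or 3 or 6-week replicate 2 or 3, over alternatives that gave 0.0035 to 0.0922.

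Il1rl1 codes for ST2, the receptor for IL-33. It stood at 0.712, 0.581 and 0.532 FPKM in fibrotic skin of 20 weeks, at 7.58, 7.49 and 0.852 FPKM in fibrotic skin of 6 weeks and at 0.299, 0.892 and 1.28 FPKM in normal skin. The rise at 6 weeks (log2 fold change 1.53 ± 0.50, adjusted p = 0.0329) was carried by replicates 1 and 2, while replicate 3 was within the normal range. It was lost without either of those 2 libraries, without normal replicate 1 or 2, and in a fit of the 6 libraries compared (adjusted p = 0.0871), over alternatives that gave 0.000401 to 0.125. Markers of mast cells, which carry ST2, summed to 39.1 to 63 FPKM in fibrotic skin of 6 weeks and 61.7 to 125 FPKM in normal skin. Single mast cell markers went both ways. Of the 7 tested, 2 were called higher and none lower at 6 weeks, and without treated replicate 1 in the fit 2 were higher and 3 lower. The decoy receptor gene Il1r2 missed the threshold (-1.17 ± 0.47, adjusted p = 0.0736 at 6 weeks, and -1.33 ± 0.47, adjusted p = 0.0532 at 20 weeks). It passed in a fit of the 6 libraries compared (0.0125 at 6 weeks, 0.0272 there with the block, and 0.0204 at 20 weeks) and without treated replicate 1 (0.0349 and 0.0227) or 2 (0.0211 and 0.0148), over alternatives that gave 0.0125 to 0.205 at 6 weeks and 0.0143 to 0.161 at 20 weeks. Not called at either time were Il1rap, the shared accessory chain, and Il1rl2, the IL-36 receptor.

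Of the 5 detected IL-17 receptor genes, 2 were lower at 6 weeks, and 1 was higher and 2 lower at 20 weeks. Il17rd was lower at both times (-0.69 ± 0.16, adjusted p = 0.00905 at 6 weeks, and -0.89 ± 0.16, adjusted p = 0.00364 at 20 weeks). Il17re, the chain for IL-17C, was lower at 6 weeks (-0.64 ± 0.15, adjusted p = 0.00902). Il17rb, the chain for IL-25, was lower at 20 weeks (-0.65 ± 0.22, adjusted p = 0.0433), a call lost without any 1 of 8 libraries, namely normal replicates 2 and 3, 6-week replicates 1 and 2, the 3 libraries of 20 weeks and treated replicate 3, over alternatives that gave 0.0143 to 0.135. At 6 weeks Il17rb missed the threshold (-0.60 ± 0.22, adjusted p = 0.0507) and passed it with the replicate number as a block (adjusted p = 0.0214). Il17rc, the chain that pairs with Il17ra for IL-17A, was higher at 20 weeks (0.66 ± 0.17, adjusted p = 0.0168), at 46.5 to 50.1 FPKM against 27.5 to 33.7 FPKM in normal skin, a call lost without normal replicate 3 or 20-week replicate 2, over alternatives that gave 0.0015 to 0.0599. Il17ra, the shared chain, was between 8.85 and 12.1 FPKM in every fibrotic and normal library and was not called.

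Among the IL-10 and IL-20 receptors, Il22ra2 fell most. It codes for a soluble protein that binds and blocks IL-22, and stood at 0.886, 1.35 and 0.191 FPKM in fibrotic skin of 20 weeks, at 0.828, 0.446 and 1.32 FPKM in fibrotic skin of 6 weeks and at 10.2, 13.1 and 29.7 FPKM in normal skin. Normal replicate 3 was highest, and every fibrotic library was far below every normal one. The log2 fold change was -3.21 ± 0.46 (adjusted p = 0.000871) at 6 weeks and -3.28 ± 0.46 (adjusted p = 0.0012) at 20 weeks. Il22ra1, the membrane receptor for IL-22, stood at 19.6 to 24.9 FPKM at 20 weeks, 11.3 to 13.8 FPKM at 6 weeks and 12.4 to 16.2 FPKM in normal skin. Its libraries of 20 weeks were above all normal ones, and those of 6 weeks overlapped them. It was not called with all 12 libraries (0.63 ± 0.35, adjusted p = 0.183 at 20 weeks, and -0.10 ± 0.35, adjusted p = 0.841 at 6 weeks). At 20 weeks it was called with only the 6 libraries compared (0.0126), with a weight for each group (0.0479) and without treated replicate 1 (0.00563), over alternatives that gave 0.00563 to 0.353.

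Il20ra and Il20rb code for the IL-20 receptor. Il20ra stood at 11.3, 12.5 and 7.26 FPKM in fibrotic skin of 20 weeks, at 4.51, 6.8 and 9.35 FPKM in fibrotic skin of 6 weeks and at 18.7, 18.4 and 38.9 FPKM in normal skin. It fell with no overlap, by a log2 fold change of -1.70 ± 0.32 (adjusted p = 0.0032) at 6 weeks and -1.16 ± 0.32 (adjusted p = 0.021) at 20 weeks, the second of which was lost without normal replicate 3 or 20-week replicate 3, over alternatives that gave 0.00596 to 0.073. Il20rb stood at 83.8, 102 and 104 FPKM in fibrotic skin of 20 weeks, at 52.6, 58.4 and 63.2 FPKM in fibrotic skin of 6 weeks and at 103, 131 and 118 FPKM in normal skin. It was lower at 6 weeks with no overlap (-1.0 ± 0.16, adjusted p = 0.00156), and at 20 weeks it overlapped normal skin and was not called (-0.28 ± 0.16, adjusted p = 0.204).

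The IL-10 receptor genes rose. Il10ra stood at 2.65, 3.55 and 3.73 FPKM in fibrotic skin of 20 weeks, at 7.2, 5.49 and 4.94 FPKM in fibrotic skin of 6 weeks and at 1.9, 3.18 and 2.2 FPKM in normal skin. The libraries of 6 weeks were above those of 20 weeks and of normal skin, which overlapped. It was called at 6 weeks (1.01 ± 0.21, adjusted p = 0.00512) and not at 20 weeks (0.34 ± 0.21, adjusted p = 0.237). Il10rb, the chain shared by receptors for IL-10, IL-22 and interferon lambda, was called at both times (0.70 ± 0.18, adjusted p = 0.0124 at 6 weeks, and 0.59 ± 0.18, adjusted p = 0.0304 at 20 weeks). The call of Il10rb was lost at 6 weeks without 6-week replicate 2 (adjusted p = 0.053, over alternatives that gave 0.00387 to 0.053), and at 20 weeks without normal replicate 1 or 3 or 20-week replicate 1 or 3, over alternatives that gave 0.00939 to 0.0969.

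Of the 7 detected receptors of the common gamma chain family, 3 were higher at 6 weeks and 2 at 20 weeks, or 42.9% and 28.6%, and none was lower. These shares are near the 39.3% and 33.5% of all genes called in either direction, the family was grouped after its values were seen, and 2 of the 3 calls at 6 weeks were lost with the replicate block, as given below. Il7r, the IL-7 receptor, stood at 4.8, 4.12 and 5.68 FPKM in fibrotic skin of 20 weeks, at 6.47, 10.4 and 5.84 FPKM in fibrotic skin of 6 weeks and at 2.27, 3.48 and 2.89 FPKM in normal skin. Neither fibrotic group overlapped normal skin, and Il7r was called at 6 weeks (1.12 ± 0.28, adjusted p = 0.0117) and not at 20 weeks (0.60 ± 0.28, adjusted p = 0.121), where it was called with only the 6 libraries compared (0.0268) and without treated replicate 1 (0.044). Il7r thus rose at 6 weeks where the gene of its ligand, Il7, fell.

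Il4ra, the receptor chain for IL-4 and IL-13, stood at 27.9, 28.6 and 18.5 FPKM in fibrotic skin of 20 weeks, at 18.1, 17.3 and 14 FPKM in fibrotic skin of 6 weeks and at 11.6, 9.98 and 8.58 FPKM in normal skin. The groups did not overlap, and it was called at 20 weeks (1.22 ± 0.29, adjusted p = 0.0117). At 6 weeks it was not called (0.66 ± 0.29, adjusted p = 0.0988), and was called with the replicate number as a block (adjusted p = 0.0283, over alternatives that gave 0.00753 to 0.227). Il13ra1, its partner in the IL-13 receptor, and Il13ra2, a decoy receptor for IL-13, were not called at either time.

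Il21r, the IL-21 receptor, stood at 1.53, 1.21 and 1.45 FPKM in fibrotic skin of 20 weeks, at 1.12, 1.14 and 0.868 FPKM in fibrotic skin of 6 weeks and at 0.124, 0.167 and 0.15 FPKM in normal skin. The groups did not overlap. It was called at both times (0.83 ± 0.30, adjusted p = 0.0488 at 6 weeks, and 1.06 ± 0.30, adjusted p = 0.0219 at 20 weeks). The call at 6 weeks was lost with the replicate number as a block (adjusted p = 0.051) and without any 1 library other than treated replicates 1 and 2, over alternatives that gave 0.00138 to 0.122. The call at 20 weeks was lost without normal replicate 1 or 3 or 20-week replicate 1 or 3, over alternatives that gave 0.000425 to 0.066.

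Il2ra, the high-affinity IL-2 receptor chain of activated and regulatory T cells, was called higher at 6 weeks (0.67 ± 0.23, adjusted p = 0.0429), at 1.11 to 1.4 FPKM against 0.251 to 0.69 FPKM in normal skin. That call was lost with the replicate number as a block (adjusted p = 0.0651) and without any 1 of 8 libraries, namely all fibrotic ones and normal replicates 1 and 3, over alternatives that gave 0.00627 to 0.121. The summed T cell markers did not separate these groups, while of the 10 tested 2 were called higher and 3 lower at 6 weeks. Il2rb, Il2rg and Il15ra were not called at either time, nor were Il3ra, Il18bp and Il4i1, with all 12 libraries in the fit. Il18bp was called higher with only the 6 libraries compared (0.77, adjusted p = 0.0104 at 6 weeks, 0.0252 there with the block, and 1.17, adjusted p = 0.00786 at 20 weeks) and without treated replicate 1 (0.0127 and 0.00178), over alternatives that gave 0.0104 to 0.524 at 6 weeks and 0.00178 to 0.354 at 20 weeks. Il2rg was called higher at 6 weeks with only the 6 libraries compared (0.66, adjusted p = 0.0339, and 0.0421 with the block) and without treated replicate 1 (0.024), over alternatives that gave 0.024 to 0.419.

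**Figure D3:**
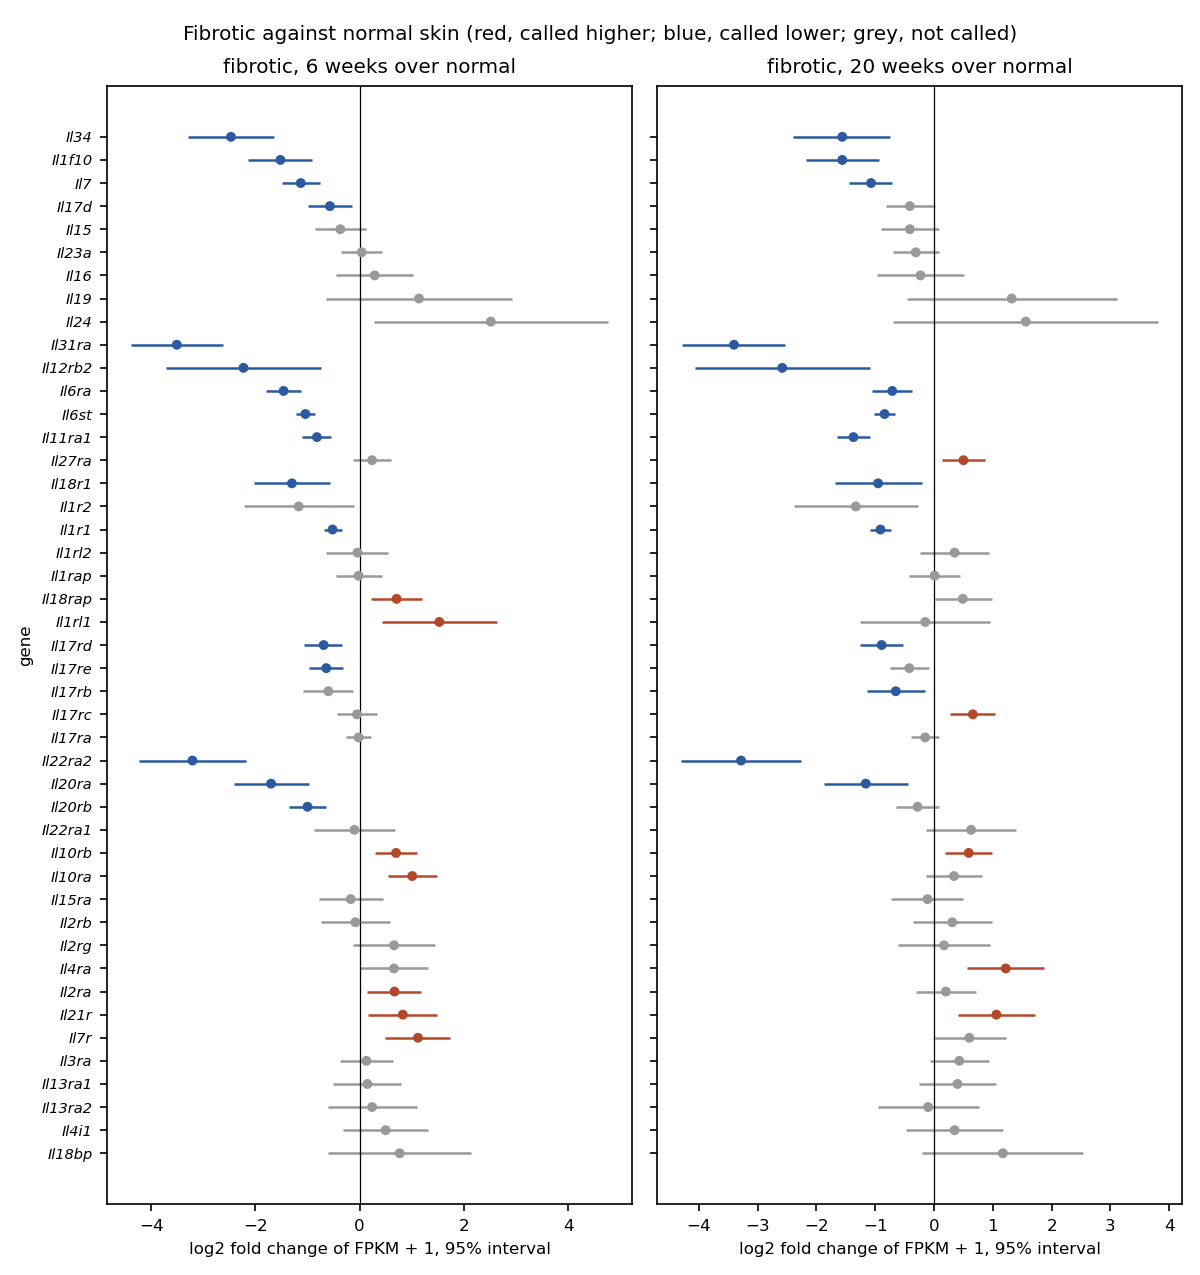
Log2 fold change of FPKM + 1, with its 95% interval, of each detected gene in fibrotic skin of 6 weeks over normal skin (left) and fibrotic skin of 20 weeks over normal skin (right), with genes called higher in red, called lower in blue and not called in grey. Il31ra and Il22ra2 lie below -3 in both panels.

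Several of these genes lie side by side in the genome, and neighbours did not always move together. On chromosome 1 of GRCm38, 6 detected IL-1 receptor genes follow each other between Il1r2, which starts at 40084692, and Il18rap, which ends at 40551707. At 6 weeks Il1r1 and Il18r1 were lower, Il1rl1 and Il18rap were higher, and Il1r2 and Il1rl2 were not called. Il1rl1 ends at 40465418 and Il18r1 starts at 40465552. On chromosome 13, Il6st (112464070 to 112506860) and Il31ra (112521931 to 112580732) were both lower at both times. On chromosome 10, Il22ra2 (19622028 to 19634681) and Il20ra (19711673 to 19760053) were also both lower at both times. On chromosome 7, Il4ra (125552271 to 125579474) and Il21r (125603252 to 125634397) were both higher at 20 weeks. On chromosome 6, Il17re (113458699 to 113470758) was lower at 6 weeks, and its neighbour Il17rc (113471455 to 113483163) was higher at 20 weeks.

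Genes that act with these receptors were read from lists of known pathway members. Beside their counts, 39.3% of all genes tested were called at 6 weeks and 33.5% at 20 weeks. Of 10 tested Jak and Stat genes, 2 were lower at 6 weeks. At 20 weeks Stat6, the Stat factor of IL-4 and IL-13 signalling, was higher (0.50 ± 0.16, adjusted p = 0.0389). Of 8 Socs genes, which code for feedback inhibitors, none was higher and 1 lower at 6 weeks, and 1 was higher and 1 lower at 20 weeks. Of 13 tested receptor chains and ligand subunits whose symbols do not start with Il, 6 were higher and 2 lower at 6 weeks, and 1 was higher and 2 lower at 20 weeks. Csf2rb, the shared chain of the IL-3 and IL-5 receptors, was higher at 6 weeks (1.03 ± 0.20, adjusted p = 0.00391), and Lifr, a gp130 partner, was lower at both times (-1.0 ± 0.13, adjusted p = 0.000531 at 6 weeks, and -0.68 ± 0.13, adjusted p = 0.00405 at 20 weeks).

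Of 10 adaptor genes of IL-1 and IL-17 receptors, 3 were higher and 1 lower at 6 weeks, and 4 were higher and none lower at 20 weeks. That is 40% called at both times, near the 39.3% and 33.5% of all genes tested. The higher adaptors include Traf6 (1.13 ± 0.23, adjusted p = 0.00527 at 20 weeks) and Irak2 (1.23 ± 0.23, adjusted p = 0.00376 at 20 weeks). Of 11 tested genes that keratinocytes switch on in response to IL-17 and IL-22, 9 were higher and 1 lower at 6 weeks, with a median log2 fold change of 3.33, and 4 were higher and 1 lower at 20 weeks, with a median of 1.66. S100a8 averaged 831 FPKM at 20 weeks, 1661 FPKM at 6 weeks and 13.5 FPKM in normal skin (7.07 ± 1.43, adjusted p = 0.00437 at 6 weeks). S100a8 and S100a9 are also neutrophil markers. The summed neutrophil markers, S100a8 and S100a9 included, stood at 394 to 3254.4 FPKM at 20 weeks, 1330.8 to 4050.3 FPKM at 6 weeks and 15.8 to 63.5 FPKM in normal skin. This sum is therefore no separate measure of neutrophils beside these genes. Of the 4 neutrophil markers tested, 4 were called higher at 6 weeks and 3 at 20 weeks. The part of neutrophils in the response list was not tested. Of 13 tested response genes of IL-4 and IL-13, 3 were higher and 1 lower at 6 weeks and 1, Arg1, was higher at 20 weeks (1.16 ± 0.34, adjusted p = 0.0246).

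Fibrotic skin of 20 weeks was then set against fibrotic skin of 6 weeks. None of the 45 genes was called, beside 5 of all genes tested, or 0.0363%, with 0.00727% higher and 0.0291% lower. The libraries did not overlap for 15 of the 45, beside 30.9% of all genes, and 9 of the 45 had an unadjusted p below 0.05 in limma. Among those 9, Il6ra (0.75 ± 0.15, adjusted p = 0.0783), Il20rb (0.72 ± 0.16, adjusted p = 0.0874), Il17rc (0.70 ± 0.17, adjusted p = 0.0965), Il34 (0.90 ± 0.37, adjusted p = 0.217) and Il6st (0.20 ± 0.08, adjusted p = 0.226) had higher levels at 20 weeks. Il1r1 (-0.39 ± 0.08, adjusted p = 0.0783), Il11ra1 (-0.55 ± 0.13, adjusted p = 0.0916), Il10ra (-0.67 ± 0.21, adjusted p = 0.141) and Il1rl1 (-1.68 ± 0.50, adjusted p = 0.126) had lower levels at 20 weeks. With only the 6 libraries compared in the fit, 4 of the 45 were called, and without treated replicate 1, 6 were called. Those 6 were Il6ra, Il20rb, Il17rc and Il22ra1, with higher levels at 20 weeks, and Il1r1 and Il11ra1, with lower levels.

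Treated skin was set against fibrotic skin of the same 20 weeks, which asks how these genes differ after the fibroblast transfer. Of the 45 genes, 5 were higher and 1 lower, or 13.3%, beside 15.3% of all genes tested. Among all genes, 4.45% were called higher and 10.9% lower. The share of the detected genes that was called was thus near that of all genes. Called genes with at least a 2-fold change were 2 of the 45, beside 3.93% of all genes, and the libraries did not overlap for 9 of the 45, beside 32.2%. All 5 higher genes had been lower in fibrotic than in normal skin at 20 weeks, a comparison with which this one shares the fibrotic libraries.

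Il11ra1 stood at 34, 40.1 and 45.7 FPKM in treated skin and at 17.1, 18.9 and 15.9 FPKM in fibrotic skin of 20 weeks. Every treated library was well above every fibrotic one, and 2 of the 3 lay below all normal libraries. The log2 fold change was 1.16 ± 0.13 (adjusted p = 0.00703). Ccl27a, which it overlaps, stood at 99.1, 145 and 160 FPKM in treated skin and at 32, 58.2 and 47.5 FPKM in fibrotic skin and was also called higher (1.55 ± 0.36, adjusted p = 0.0229).

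Il31ra stood at 0.622, 3.35 and 4.28 FPKM in treated skin and at 0.0485, 0.744 and 0.1 FPKM in fibrotic skin of 20 weeks. Treated replicates 2 and 3 were above all fibrotic libraries, and treated replicate 1 overlapped them. The log2 fold change was 1.40 ± 0.40 (adjusted p = 0.0403). The summed markers of sebaceous gland, adipocytes, blood endothelium and skeletal muscle fibres all had the same order of the treated libraries. Their part in the Il31ra levels was not tested. Il31ra in treated skin remained below normal skin, with a log2 fold change of -2.0 ± 0.40 (adjusted p = 0.00956).

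Il7 stood at 1.56, 2.61 and 1.89 FPKM in treated skin and at 1.08, 0.96 and 0.626 FPKM in fibrotic skin of 20 weeks, with no overlap (0.67 ± 0.16, adjusted p = 0.0268). Il6st stood at 41.1, 42.6 and 38.2 FPKM in treated skin and at 30.2, 35.3 and 33.7 FPKM in fibrotic skin, with no overlap (0.29 ± 0.08, adjusted p = 0.0415). Il1r1 stood at 14.1, 13.7 and 12.7 FPKM in treated skin and at 9.92, 9.39 and 9.64 FPKM in fibrotic skin, with no overlap (0.44 ± 0.08, adjusted p = 0.016). The levels of Il6st and Il1r1 in every treated library were between those of the fibrotic and normal libraries. Both stayed below normal skin in the test (Il6st -0.55 ± 0.08, adjusted p = 0.00384, and Il1r1 -0.47 ± 0.08, adjusted p = 0.00593).

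Il20rb, at 76, 68 and 49.7 FPKM in treated skin and 83.8, 102 and 104 FPKM in fibrotic skin of 20 weeks, was the only detected gene called lower (-0.59 ± 0.16, adjusted p = 0.0383). All 3 treated libraries were below all 3 fibrotic ones. Il20rb had not been called in fibrotic skin of 20 weeks against normal skin.

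None of these 6 calls held in a fit of only the 6 libraries compared, where the adjusted p was 0.128 for Il11ra1 and Il1r1, 0.133 for Il7, 0.146 for Il20rb, 0.158 for Il31ra and 0.173 for Il6st. None held without fibrotic replicate 3 of 20 weeks either, where Il11ra1 had an adjusted p of 0.0655 and Il1r1 of 0.0702. Il31ra and Il6st were lost without any 1 library other than treated replicate 1, Il20rb without any 1 of 8 libraries, namely those of fibrotic skin of 20 weeks, treated replicates 2 and 3, 6-week replicates 1 and 2 and normal replicate 3, and Il7 without any 1 of 5, namely those of fibrotic skin of 20 weeks and treated replicates 2 and 3. At equal totals, a scaling defined below, the log2 fold change of Il20rb was -0.34 and was not called (adjusted p = 0.103), while all 5 higher genes kept their calls.

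Without treated replicate 1, which stands apart by the marker levels given above, 22 of the 45 genes were called, 9 higher and 13 lower, and all 6 genes above were among them. Those added as lower included Il22ra1 (-1.65, adjusted p = 0.000258), Il13ra1 (-1.16, adjusted p = 0.00323), Il1rl2 (-1.07, adjusted p = 0.0054), Il19 (-1.23, adjusted p = 0.0164) and the IL-18 inhibitor gene Il18bp (-1.01, adjusted p = 0.0079). Il22ra1 stood at 20.3, 7.17 and 5.57 FPKM in treated skin and at 24.9, 19.6 and 21.8 FPKM in fibrotic skin of 20 weeks, and had an adjusted p of 0.0519 with all libraries. Il18bp stood at 27.7, 3.25 and 2.98 FPKM in treated skin and at 10.1, 7.14 and 5.27 FPKM in fibrotic skin. For these genes, treated replicate 1 was within or above the fibrotic range and the other treated libraries were below it. Those added as higher were Il3ra (0.82, adjusted p = 0.0311), Il1f10 (0.96, adjusted p = 0.0376), Il17rd (0.68, adjusted p = 0.00759) and Il17d (0.55, adjusted p = 0.0357). Over all 13761 genes, 5216 were called without treated replicate 1 and 2108 with it.

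The IL-20 family ligands showed the same library most sharply. Il24 stood at 14.9, 0.174 and 0.0548 FPKM in treated skin and at 4.03, 2.97 and 0.282 FPKM in fibrotic skin of 20 weeks. Il19 stood at 12.4, 0.159 and 0.026 FPKM in treated skin and at 3.41, 1.31 and 0.638 FPKM in fibrotic skin. Treated replicate 1 had the highest level of all 12 libraries for both genes, and the other treated libraries were below every fibrotic library of 20 weeks. Neutrophil markers, S100a8 and S100a9 included, summed to 1235.2, 60.2 and 31.3 FPKM in the same 3 treated libraries. Both of these genes are also on the list of IL-17 and IL-22 response genes of keratinocytes. The part of neutrophils in the Il19 and Il24 levels was not tested.

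Il34 did not pass the test between treated and fibrotic skin (0.65 ± 0.37, adjusted p = 0.242), at 19.1, 36.8 and 37.6 FPKM in treated skin and 9.15, 28.2 and 24.8 FPKM in fibrotic skin. The same held for Il1f10 (0.86 ± 0.28, adjusted p = 0.0606), Il22ra2 (0.60 ± 0.46, adjusted p = 0.377) and Il12rb2 (0.88 ± 0.67, adjusted p = 0.375). Il3ra, the IL-3 receptor alpha chain, stood at 3.08, 2.55 and 5.56 FPKM in treated skin and at 1.91, 1.84 and 1.5 FPKM in fibrotic skin, without overlap, and missed the threshold (0.74 ± 0.23, adjusted p = 0.0529). Il3ra passed at equal totals (0.0373) and without treated replicate 1 (0.0311), over alternatives that gave 0.0311 to 0.167. Il1f10 passed at equal totals (0.0392) and without 20-week fibrotic replicate 2 (0.0497) or treated replicate 1 (0.0376), over alternatives that gave 0.0376 to 0.199.

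Set against normal skin, treated skin had 5 of the 45 genes higher and 8 lower, or 28.9%, beside 20.7% of all genes tested. Among all genes, 7.57% were higher and 13.2% lower. Called genes with at least a 2-fold change were 7 of the 45, beside 3.7% of all genes, and the libraries did not overlap for 16, beside 37.5%. This comparison shares its treated libraries with the one above and its normal libraries with those of fibrotic skin. The lower genes were all receptors. Il22ra2, at 0.46, 1.94 and 3.29 FPKM in treated skin and 10.2, 13.1 and 29.7 FPKM in normal skin, had the largest fall (-2.68 ± 0.46, adjusted p = 0.00599). Next were Il31ra, given above, Il20ra (-1.22 ± 0.32, adjusted p = 0.0263), Il18r1 (-1.18 ± 0.33, adjusted p = 0.0323), Il20rb (-0.87 ± 0.16, adjusted p = 0.00788) and Il6ra (-0.86 ± 0.15, adjusted p = 0.00659). The remaining lower genes were Il6st and Il1r1, given above.

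The genes higher in treated than in normal skin were Il3ra, Il4ra, Il21r, Il2ra and Il27ra. Il3ra stood at 3.08, 2.55 and 5.56 FPKM in treated skin and at 1.51, 1.04 and 0.654 FPKM in normal skin, with no overlap (1.16 ± 0.23, adjusted p = 0.00895). Il4ra stood at 40.4, 22.7 and 15.4 FPKM in treated skin and at 11.6, 9.98 and 8.58 FPKM in normal skin, with no overlap and with treated replicate 1 highest (1.2 ± 0.29, adjusted p = 0.0206). Il21r stood at 3.13, 0.454 and 1.03 FPKM in treated skin and at 0.124, 0.167 and 0.15 FPKM in normal skin (1.0 ± 0.30, adjusted p = 0.0393), and without treated replicate 1 its log2 fold change was 0.58 (adjusted p = 0.0298). The calls of Il2ra (0.76 ± 0.23, adjusted p = 0.0427) and Il27ra (0.61 ± 0.17, adjusted p = 0.03) were lost without treated replicate 1 (adjusted p = 0.092 and 0.0519), over alternatives that gave 0.00538 to 0.167 for Il2ra and 0.0252 to 0.135 for Il27ra. Of the other calls against normal skin, Il4ra was lost without normal replicate 2 or 3, Il18r1 without normal replicate 1 or 3 or treated replicate 2 or 3, and Il20ra without normal or treated replicate 3, over alternatives that gave 0.00924 to 0.104 for Il4ra, 0.0139 to 0.12 for Il18r1 and 0.0227 to 0.0919 for Il20ra. Il21r was lost without any 1 library other than treated replicates 1 and 2 (0.0108 to 0.161), Il2ra also without any other than treated replicate 2, and Il27ra without normal replicate 1 or 3. None of the 13 calls against normal skin held in a fit of only the 6 libraries compared, where the adjusted p of Il6ra, the lowest of them, was 0.0584.

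Of the 13 genes lower in fibrotic than in normal skin at both times, 7 were also lower in treated than in normal skin and 6 were not called there, with the normal libraries shared by these comparisons. The 6 were Il11ra1 (-0.21 ± 0.13, adjusted p = 0.248, 95% interval -0.49 to 0.07), Il17rd (-0.36 ± 0.16, adjusted p = 0.14), Il7 (-0.40 ± 0.16, adjusted p = 0.103), Il1f10 (-0.70 ± 0.28, adjusted p = 0.0972), Il34 (-0.92 ± 0.37, adjusted p = 0.102) and Il12rb2 (-1.70 ± 0.67, adjusted p = 0.0944). Of these, the treated and normal libraries overlapped for Il11ra1, Il17rd, Il7, Il1f10 and Il12rb2 and did not for Il34. A p above the threshold does not show that these levels are alike.

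**Figure D4:**
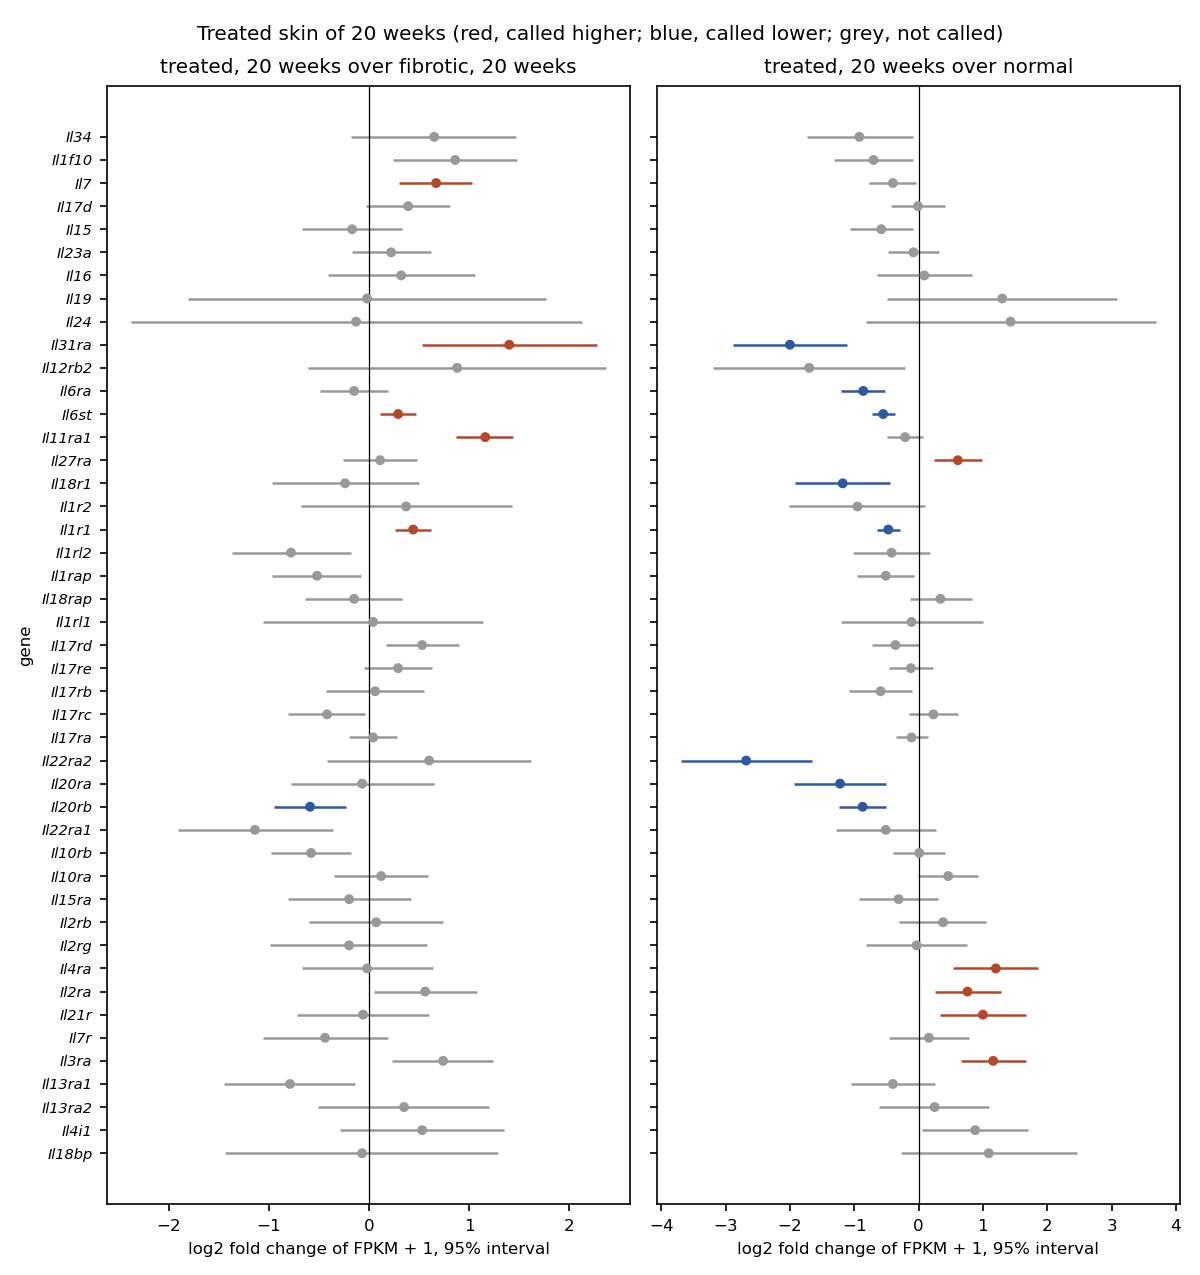
Log2 fold change of FPKM + 1, with its 95% interval, of each detected gene in treated skin over fibrotic skin of 20 weeks (left) and in treated skin over normal skin (right), with genes called higher in red, called lower in blue and not called in grey. Il11ra1, Il31ra, Il7, Il1r1 and Il6st are red on the left, and Il22ra2 has the lowest value on the right.

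Of the pathway lists, the IL-1 and IL-17 receptor adaptors had none higher and 3 of 10 lower in treated than in fibrotic skin of 20 weeks, with Traf6 (-1.30 ± 0.23, adjusted p = 0.0155) and Irak2 (-1.01 ± 0.23, adjusted p = 0.0227) among them. Among all genes tested, 4.45% were higher and 10.9% lower in this comparison. The Jak and Stat list had 1 of 10 higher, Jak3, the kinase that binds the common gamma chain (0.75 ± 0.18, adjusted p = 0.0245), and 2 lower, Jak1 (-0.68 ± 0.15, adjusted p = 0.0219) and Stat6 (-0.58 ± 0.16, adjusted p = 0.0392). None of the 13 other receptor chains and ligand subunits and none of the 11 IL-17 and IL-22 response genes was called by limma, where 1 of the 13 and 0 of the 11 had an unadjusted p below 0.05. The 15 response genes on that list summed to 1380.5, 119 and 67.2 FPKM in treated skin and to 3550.3, 650 and 479 FPKM in fibrotic skin of 20 weeks, so that treated replicate 1 was within the fibrotic range and the other treated libraries were below it. Without treated replicate 1, 3 of the 11 response genes were lower and none higher, namely Defb14 (-2.58, adjusted p = 0.0244) and 2 genes that are also on the neutrophil marker list, S100a8 (-4.97, adjusted p = 0.00423) and S100a9 (-3.8, adjusted p = 0.0106). In the same fit 8 of the 10 adaptors were lower and none higher, where 5216 of all 13761 genes were called. Of the 13 IL-4 and IL-13 response genes, Tgm2 was higher (1.0 ± 0.26, adjusted p = 0.0323) and Arg1 lower (-1.95 ± 0.34, adjusted p = 0.0154), and Arg1 averaged 22.1 FPKM in treated skin and 81.4 FPKM in fibrotic skin.

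The 27 genes below the detection rule were 20 ligands, 6 receptors and the gene listed as Il8. Il6, the ligand of Il6ra and Il6st, stood at 0.369, 0.18 and 0.0653 FPKM in treated skin, at 0.165, 0.105 and 0.195 FPKM in fibrotic skin of 20 weeks, at 1.19, 2.6 and 0.54 FPKM in fibrotic skin of 6 weeks and at 0.179, 0.212 and 0.181 FPKM in normal skin. Only the libraries of 6 weeks rose above the others. With no filter on low values, Il6 was called higher at 6 weeks than in normal skin (0.95 ± 0.24, adjusted p = 0.0172). The receptor gene Il23r was also called higher in that comparison and fit (0.27 ± 0.06, adjusted p = 0.0124). It stood at 0.268, 0.38 and 0.332 FPKM in fibrotic skin of 6 weeks and at 0.0624, 0.125 and 0.118 FPKM in normal skin. In the same comparison and fit, 5775 of all genes were called.

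Il5ra, the receptor chain for the eosinophil factor IL-5, stood at 0.00688, 0.0673 and 0.0793 FPKM in treated skin, at 0, 0.111 and 0.0442 FPKM in fibrotic skin of 20 weeks, at 0.011, 0 and 0.02 FPKM in fibrotic skin of 6 weeks and at 0.444, 0.778 and 0.554 FPKM in normal skin. The normal libraries were above all others. With no filter, Il5ra was lower at 6 weeks (-0.65 ± 0.07, adjusted p = 0.000406), at 20 weeks (-0.59 ± 0.07, adjusted p = 0.00103) and in treated skin (-0.59 ± 0.07, adjusted p = 0.00239) than in normal skin.

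The ligands of several receptors above were seen in single treated libraries. Il17a stood at 0.0319, 0 and 2.76 FPKM and Il17f at 0.0289, 0.0205 and 2.21 FPKM in treated skin, and neither passed 0.0788 FPKM in the other groups. Il13 stood at 2.79, 0.138 and 0.0586 FPKM in treated skin and at 0.576, 0.342 and 0.376 FPKM in fibrotic skin of 20 weeks. Treated replicate 3, the library with the most hair shaft transcripts, thus had the high Il17a and Il17f, and treated replicate 1 the high Il13. Il10 was at most 0.758 FPKM in any library, Il20 at most 0.699 FPKM, and Il3 was listed at 0 in all 12.

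**Figure D5:**
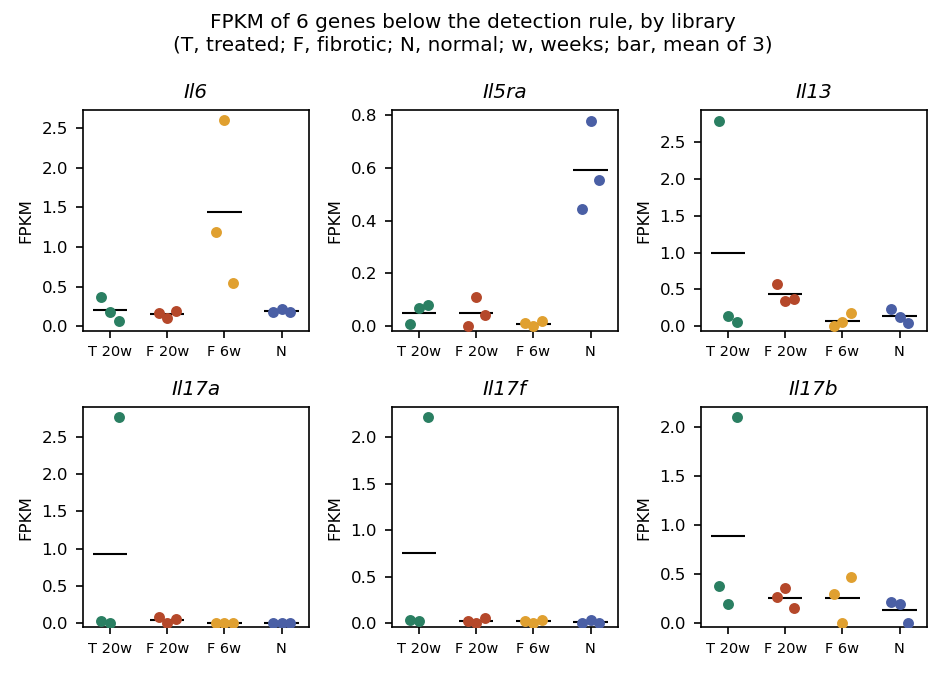
FPKM of 6 genes below the detection rule in each library, with a bar at the mean of 3, for treated skin of 20 weeks (T 20w), fibrotic skin of 20 weeks (F 20w), fibrotic skin of 6 weeks (F 6w) and normal skin (N). Each panel has its own axis from 0. Il17a, Il17f and Il17b stand out in treated replicate 3, Il13 in treated replicate 1, Il6 in fibrotic skin of 6 weeks and Il5ra in normal skin.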

How the data were processed

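RNA of macrodissected skin was sequenced from poly(A)-selected stranded libraries, per the labels. The authors deposited 1 table of FPKM for the 12 libraries. The submitters' processing notes name mm10, TopHat2 2.0.13, Bowtie2 2.2.3 and Cufflinks 2.2.1, and whether counting used strand is not given in the sources used here. Library totals are not given either. Low values step in whole fragments, from which the relative depth of the libraries was 0.788 to 1 of the deepest.

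The values were tested as log2(FPKM + 1) with limma 3.58.1 in R 4.3.3, in 1 fit of 4 group means over all 12 libraries with a mean-variance trend, on the 13761 genes that reached 1 FPKM or more in 3 libraries or more. P-values were adjusted by Benjamini-Hochberg over all of these, and 0.05 was the threshold. The fit was tested on simulated data. Detected genes called with at least a 2-fold change in 1 of the 5 comparisons are described with their values by library. The genes and lists were chosen with earlier results of these data known, and the receptor families were grouped after the values were seen. Alternatives were another pseudocount, filter, scaling, weighting, a replicate block, only the libraries compared, and each library left out. The scaling to equal totals left keratin, cornified envelope, stefin, muscle and short RNA genes and rows of extreme values out of the total.

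Same-numbered libraries of fibrotic skin of 6 weeks and normal skin deviated together only weakly (r = 0.159, 0.227 and 0.108 across genes). The labels give no pairs, and values this small from 3 libraries per group do not establish a pairing. In the other comparisons r was not positive for every replicate number. The calls given for 6 weeks come from the fit without pairs, and the replicate block is given as an alternative. Coordinates and promoters are those of RefSeq for GRCm38.p6, matched by symbol. The gene listed as Il8 had no symbol match. The count of the Jak and Stat list at 20 weeks is not reported here.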

Additional observations from a re-analysis of the deposited data

How the results depend on the processing

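No value changed its direction under any alternative where it had been called. Of the calls in fibrotic against normal skin, 16 of 23 at 6 weeks and 11 of 19 at 20 weeks held under every alternative that tested the gene. Genes with a mean below 5 FPKM, such as Il31ra and Il7, were left out of the alternative with that filter. None of the 6 calls of treated against fibrotic skin or the 13 of treated against normal skin held under every alternative. With genes of a mean of 5 FPKM or more only, 25 of the 45 genes were tested, and 13 were called at 6 weeks, 12 at 20 weeks and 8 in treated against normal skin. With only the 6 libraries compared, 4 were called between the fibrotic times and none in treated against fibrotic (0) or normal skin (0), where 3 and 138 of all genes were called, against 2108 and 2855 with all libraries. One weight per group gave 5 calls between the fibrotic times and 3 in treated against fibrotic skin. The cause of these changes was not tested, apart from the fewer genes or libraries in a fit. With each library left out in turn, 16 to 30 genes were called at 6 weeks, 11 to 25 at 20 weeks, 0 to 6 between the fibrotic times, 0 to 22 in treated against fibrotic skin and 7 to 16 in treated against normal skin. The lowest counts at 20 weeks and in treated against normal skin came without normal replicate 3. The count in treated against fibrotic skin was 2 or 3 without any 1 of normal replicate 3, 6-week replicate 1 or 2, 20-week replicate 1 or 2 and treated replicate 2 or 3, 0 without 20-week replicate 3 and 22 without treated replicate 1.

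With the replicate number as a block, 23 genes were called at 6 weeks, 20 of them the same, and 3 in treated against fibrotic skin. The numbers are not established as pairs in either comparison. With that block in a fit of only the 6 libraries, chosen after seeing the data, 29 were called at 6 weeks. At equal totals the median log2 fold change of all genes was -0.253 at 6 weeks, -0.252 at 20 weeks and 0.203 in treated against fibrotic skin. Before that scaling it was -0.051, -0.036 and -0.004. Of all genes called, 1629 of 6387 were then higher at 6 weeks (2427 of 5409 before), 1275 of 5862 at 20 weeks (2102 of 4605 before) and 1850 of 2641 in treated against fibrotic skin (612 of 2108 before). The depth behind a value is known only in relative terms, so no detection limit is given.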
